A study of Danio rerio with 18 samples.

Results

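The NMLF, the nucleus of the medial longitudinal fascicle, is a group of large midbrain neurons whose axons descend into the spinal cord, and in zebrafish (Danio rerio) these axons grow back after the cord is severed. RNA of the NMLF region, cut from the brain by laser capture, was hybridised to Affymetrix arrays, 1 array per sample. The 3 arrays of fish sampled 11 d after spinal cord transection were compared with the 3 arrays sampled 4 h after it. These are 6 of the 18 arrays in the series, chosen by the surgery, time and replicate number in the sample titles. The other 12 arrays, 3 per group, came from transected fish at 12 h and from sham-operated control fish at 4 h, 12 h and 11 d. Per the design text, the times were meant to set early events after injury apart from those of regrowth. No transgene or drug is named, and all fish were housed in 1 light cycle and at 1 temperature. The labels do not give strain, age, sex, the level of the cut, the time of day or any pooling of fish. The p-values therefore measure the spread between these samples, which may be technical.

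A neuron whose axon is cut is known to shift from transmission to growth. It makes more tubulin, actin-regulating proteins and the growth cone protein Gap43, under injury transcription factors such as Atf3 and Jun. Microglia and leukocytes near injured neurons express complement, lysosomal and interferon-linked genes. Sterol synthesis is driven by SREBP transcription factors, which Insig proteins hold back in the endoplasmic reticulum when membranes hold enough cholesterol. Brain aromatase, encoded by cyp19a1b, makes oestrogens from androgens and in fish is found in radial glia, the neural stem cells of the adult brain.

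Levels below are normalized signals: the deposited intensities were quantile normalized over the 18 arrays and values under 16 were set to 16, the floor. A group level is the geometric mean of 3 arrays, and a change is the difference of mean log2 signals, 11 d minus 4 h, with the SE of the limma model. Adjusted p-values come from limma with Benjamini-Hochberg adjustment over the 15502 probe sets tested, and a probe set passed under 0.05. A signal depends on the probe sequences, so levels of different genes are not compared.

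Arrays within the 4 h group correlated at 0.96 to 0.983 and within the 11 d group at 0.939 to 0.984, and arrays of different times at 0.94 to 0.97. The first principal component of the 6 arrays (48% of the variance) did not follow time: it set replicate 1 of 4 h and replicates 1 and 2 of 11 d, with scores of -24.1, -27.1 and -39.5, apart from the other 3, at 24.2 to 38.4. The second (22.1%) separated the times. Replicate 3 of the 4 h transected group had a deposited trimmed mean of 92.6, against 150 on the other 5 arrays, before normalization. The 3'/5' ratio of the GAPDH controls, which rises as RNA is shortened, was 1.94 to 2.15 at 4 h and 1.66 to 3.75 at 11 d (two-sided exact permutation p = 0.5, where 3 against 3 arrays cannot go below 0.1). At 12 h it was 3.52 to 4.53, so 12 h values are descriptions only. Neuronal markers were present throughout: all 5 measured of 8 defining ones, such as snap25a and elavl3, had signal above the floor. So did the measured ones of radial glia, oligodendrocytes, blood cells and microglia on the 6 arrays, with 1 exception. ptprc, a leukocyte marker, was at the floor on 1 array at 4 h. The captured tissue thus held RNA of other cell types, and fewer cells of a type cannot be told apart from less RNA per cell.

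Between 4 h and 11 d after transection, 39 of 15502 probe sets changed (0.252%), of which 17 were higher at 11 d (0.11%) and 22 lower (0.142%). They stand for 28 named genes, since 29 of the 39 have a single gene symbol. At an unadjusted p under 0.05 the count was 1129. The split of rises and falls depended on the scaling: it was 11 to 0 on the deposited scale, where the median of all probe sets was itself 0.149 higher at 11 d, and 17 to 46 with arrays scaled to 1 median. In sham fish, limma passed 0 probe sets for the same times, with 802 at an unadjusted p under 0.05. The difference between the changes, transected minus sham, passed for 4 probe sets (0.0258%), with 482 at an unadjusted p under 0.05. Without any true change, about 675 of the 13493 probe sets that varied would be expected under 0.05, more than the 482. With the replicate number as a block 1 of the 4 passed. With same-numbered sham and transected arrays of a time as a block limma passed 0, with 999 at an unadjusted p under 0.05.

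All 39 changes were larger in transected than in sham fish, and 34 had the same sign in both. The rises had a median log2 change of 1.78 against 0.27 in sham fish, and the falls -1.63 against -0.35. Because the 39 were chosen for being large in transected fish, this shrinkage is a description without a test. Only 5 calls held without any 1 of the 6 arrays: c4b, tnfaip6, jag1a and 2 probe sets without a gene name. The count was 5 without replicate 2 of 4 h, 10 without replicate 1 of 11 d, 20 without replicate 1 and 27 without replicate 3 of 4 h, 22 without replicate 2 of 11 d and 57 without replicate 3 of 11 d. Of the 57, 27 were among the 39. The plot of the change in transected against sham fish shows both groups of called probe sets, with clk4a and zgc:113265 close to the diagonal of equal change.

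**Figure D1:**
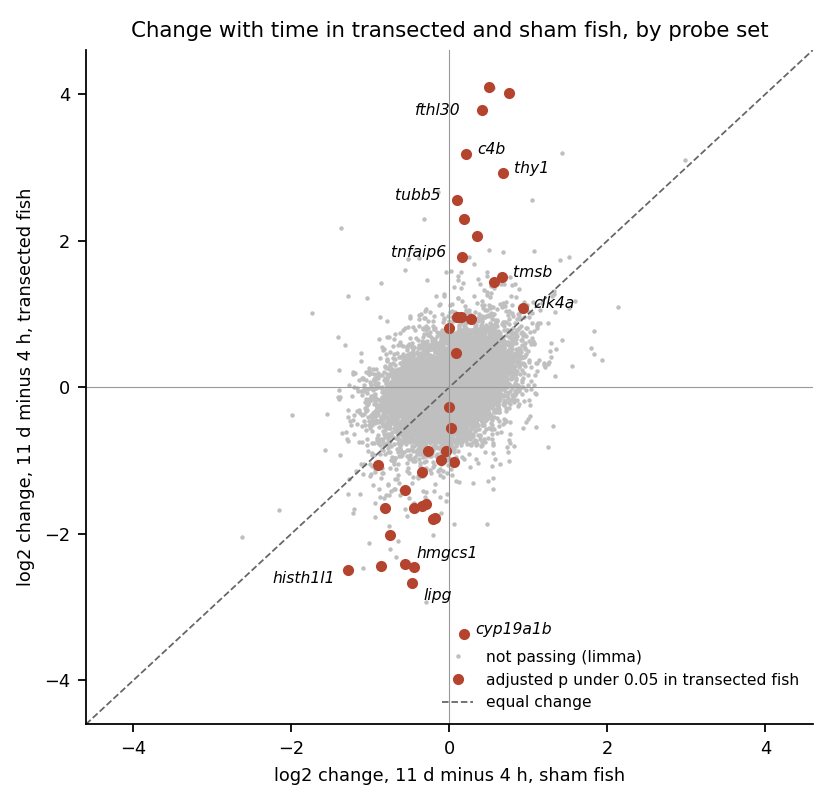
Log2 change from 4 h to 11 d in sham fish (horizontal axis) against transected fish (vertical axis), 1 point per probe set, 15502 in all. The 39 red points have an adjusted p under 0.05 in transected fish, 17 above 0 and 22 below it on the vertical axis, each farther from 0 than on the horizontal axis, and the dashed line marks equal change.

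Several genes of the neuronal surface and cytoskeleton rose. thy1, a lipid-anchored glycoprotein of neuronal surfaces, read 70.21, 74.2 and 82.3 at 4 h and 576, 897 and 367 at 11 d, without overlap. Its level was 7.61-fold higher (log2 change 2.93 ± 0.42 (SE), adjusted p = 0.016), while sham levels were 71.1 and 114. tubb5, a beta-tubulin of microtubules, read 199, 440.0 and 308 at 4 h and 1712, 2179 and 1459.6 at 11 d. The lowest 11 d array was well above the highest 4 h array, and the level rose 5.87-fold (2.55 ± 0.43, adjusted p = 0.033; sham 0.10). A second tubb5 probe set stayed near the floor, with levels of 16 and 18.3. tmsb, a beta-thymosin that binds actin monomers, read 2577, 1629 and 2074 at 4 h, then 1369, 1178 and 1375 at 12 h, and finally 6186, 5939 and 5398 at 11 d. It rose 2.83-fold (1.50 ± 0.23, adjusted p = 0.018; sham 0.66), and the 11 d arrays were the highest of the 3 times. Without replicate 2 of 4 h the adjusted p was 0.077 for thy1, 0.076 for tubb5 and 0.085 for tmsb, and without replicate 1 of 11 d it was 0.066, 0.12 and 0.081. Of the 6 omissions of 1 array, thy1 and tmsb each kept the call in 2 and tubb5 in 1. Over all 6 omissions the log2 change ran from 2.61 to 3.25 for thy1, from 2.26 to 2.83 for tubb5 and from 1.34 to 1.67 for tmsb.

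gap43, the growth cone protein, missed the threshold with all probe sets and passed with the dimmest 33.3% of probe sets left out. It read 994, 1821 and 2084 at 4 h and 4228, 4014 and 3662 at 11 d, with no overlap, and was 2.54-fold higher (1.35 ± 0.28, adjusted p = 0.091; 0.045 with 10335 probe sets tested). In sham fish its level went from 1477 to 1636. With the dim ones left out, 52 probe sets passed (0.503%), 22 higher and 30 lower, and 26 of these were among the 39. In that fit limma also drew the spread of each probe set more strongly to a common value (prior degrees of freedom 5.8, against 0.514). Its adjusted p-values, here and below, thus differ by more than the number of probe sets tested. The injury transcription factor atf3 read 112, 70.9 and 59.4 at 4 h and 335, 414 and 159 at 11 d, which did not overlap, but its 3.6-fold difference did not pass (1.85 ± 0.50, adjusted p = 0.21). jun (0.64 ± 0.37, adjusted p = 0.83) and fosab (1.16 ± 0.61, adjusted p = 0.79), members of the AP-1 family, overlapped between the times on their brightest probe sets. A dimmer fosab probe set did not overlap and did not pass (61.7 to 135, log2 change 1.13 ± 0.33, adjusted p = 0.28). The remaining fosab probe sets overlapped.

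Of 69 measured genes of a list linked to axon regeneration, 47 were higher and 21 lower at 11 d. Of the 69, 2 passed, tmsb and tubb5, where 0.11% of all probe sets passed as higher. The median log2 change was 0.16, beside 0 over all 8793 genes (3818 higher, 3890 lower), 0 for the list in sham fish, and only 0.0025 under median scaling. 13 of the 69 lay above 4 h without overlap and 3 below, where 4.55% and 5.3% of all probe sets did so. Counted by gene on the brightest probe set, as the lists here and below are, 451 of all 8793 genes lay above and 593 below. These are somewhat larger shares than over all probe sets. The higher members included dpysl3, a growth cone microtubule regulator (2604 to 4044; 0.64 ± 0.15, adjusted p = 0.15), inab, a neuronal intermediate filament (741 to 1671; 1.17 ± 0.32, adjusted p = 0.22), and junba, an AP-1 factor (667 to 1586; 1.25 ± 0.43, adjusted p = 0.4). Among 13 alpha- and beta-tubulins, 11 were higher and 2 lower, 5 without overlap and 1 passing, with a median of 0.29 (0.38 on the deposited scale, 0.13 under median scaling, where the counts were 7 and 6). tuba1b, an alpha-tubulin of growing neurons, went from 259 to 648 (1.32 ± 0.31, adjusted p = 0.14). tuba8l3, another alpha-tubulin, was named after its values were seen and went from 1689.9 to 3319 (0.97 ± 0.28, adjusted p = 0.27).

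Neuronal identity genes as a group did not move one way: 21 of 43 markers were higher and 20 lower (median 0, or 0.15 and -0.16 on the deposited and median scales). thy1 alone passed, where 0.11% of all probe sets passed as higher. pvalb7, a calcium-binding parvalbumin, had a level of 1038 at 4 h and 471 at 11 d (-1.14 ± 0.26, adjusted p = 0.12), and calb2a, calretinin, 2304 and 1531 (-0.59 ± 0.14, adjusted p = 0.12), without overlap for either. uchl1, a ubiquitin hydrolase abundant in neurons, went the other way, from 3054 to 4592 (0.59 ± 0.15, adjusted p = 0.16). The summed signal of the 43 markers spanned 40540 to 57860 at 4 h and 52610 to 62870 at 11 d, which overlap. Among 8 candidate genes of follow-up work on this preparation, 5 were higher and 3 lower, and none passed (median 0.20, and -0.0084 under median scaling). sdcbp2, a syntenin scaffold protein, read 753, 668 and 585 at 4 h and 1357, 1367 and 925 at 11 d (0.85 ± 0.24, adjusted p = 0.23), and lgmn, the lysosomal protease legumain, 274, 277 and 243 and 419, 336 and 357 (0.48 ± 0.18, adjusted p = 0.48). These 2 lay above 4 h without overlap, as did 4.55% of all probe sets. On their brightest probe sets the other 6 (mvp, csrp1a, hmgb1a, l1cama, tncb and sox11b) overlapped between the times, with log2 changes from -0.17 to 0.52. A dimmer sox11b probe set lay above 4 h without overlap (28.8 to 49.0, log2 change 0.77 ± 0.19, adjusted p = 0.17), and another was nearly level (0.096). A second csrp1a probe set had the opposite sign (0.29, against -0.17).

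**Figure D2:**
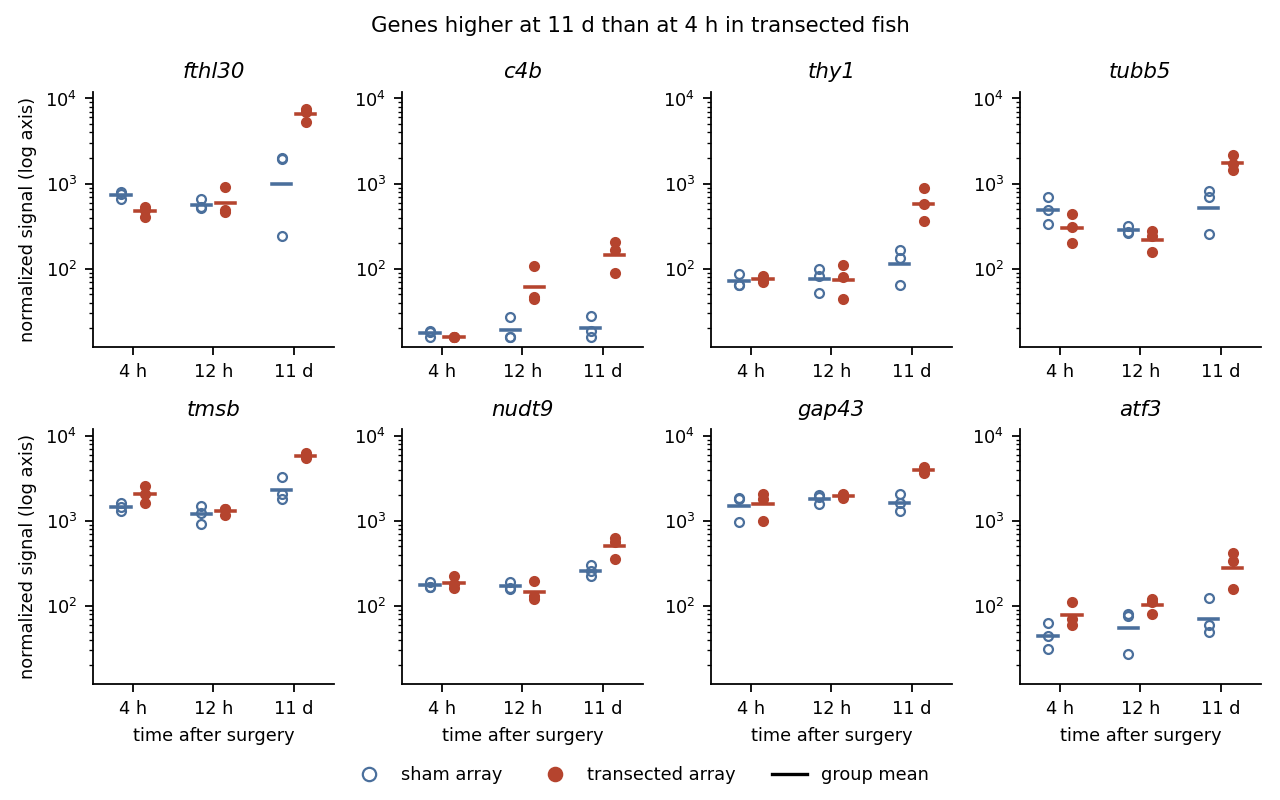
Normalized signal (log axis) of 8 genes on each array of sham (open) and transected (filled) fish at 4 h, 12 h and 11 d, with group means as bars. In every panel the 3 filled points at 11 d lie above the 3 at 4 h. The first 6 genes passed at an adjusted p under 0.05, and gap43 and atf3 did not.

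2 complement genes and an inflammation gene rose. c4b, a complement component that tags targets for removal, was at the floor on all 3 arrays at 4 h. It read 109, 46.6 and 44.3 at 12 h and 89.1, 206 and 166 at 11 d, so every later array was above the floor, and the 11 d level was at least 9.07-fold higher (log2 change 3.18 ± 0.37 (SE), adjusted p = 0.0044). Sham levels were 17.5 at 4 h and 20.2 at 11 d, and the adjusted p ran from 0.0019 to 0.035 when each of the 6 arrays was left out. cfp, properdin, which stabilises the alternative pathway convertase, read 55.9, 58.7 and 43.6 at 4 h and 119, 118 and 74.6 at 11 d. It rose 1.94-fold (0.96 ± 0.16, adjusted p = 0.035), a call that was lost without either replicate 1 (0.07), 2 (0.085) or 3 (0.12) of 4 h and without replicate 1 (0.16) or 2 (0.15) of 11 d. tnfaip6 encodes a secreted protein that binds hyaluronan and is induced in inflammation. It read 20.8, 16.1 and 16 at 4 h and 55.7, 71.7 and 53.7 at 11 d, a 3.42-fold rise (1.78 ± 0.16, adjusted p = 3.3e-04) from a level near the floor. Another tnfaip6 probe set was at the floor on all 6 arrays.

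Over the list of inflammation and complement genes, 26 of 51 were higher and 22 lower, with a median of 0.01 (0.01 in sham fish, 0.23 and 0.0021 on the deposited and median scales). Of the 51, 3 passed, all higher, where 0.11% of all probe sets passed as higher. mmp9, a matrix metalloprotease, read 184, 51.5 and 54.0 at 4 h and 374, 353 and 1001 at 11 d, without overlap (2.67 ± 0.58, adjusted p = 0.099; 0.023 with dim probe sets left out). steap4, an iron and copper reductase, went from 36.4 to 133 (1.87 ± 0.42, adjusted p = 0.11; 0.035 with dim probe sets left out). nfkbiab, an inhibitor of NF-kB that NF-kB itself induces, moved the other way, from 1399.6, 1447 and 2113 to 634, 634 and 696 (-1.31 ± 0.25, adjusted p = 0.066; 0.034). Its 3 arrays at 11 d all lay below those at 4 h. socs3a, a feedback inhibitor of cytokine signalling, was named after its values were seen and went from 826 to 446 (-0.89 ± 0.32, adjusted p = 0.44; sham -0.77).

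Markers of microglia and leukocytes lay higher at 11 d as a list, with none passing: 31 of 38 were higher and 5 lower, 13 of them above 4 h without overlap (4.55% of all probe sets were). Their median was 0.35, against 0.06 in sham fish, and 0.64 and 0.27 on the deposited and median scales. Their summed signal was 8617 to 12620 on the 4 h arrays and 15320 to 16760 on the 11 d arrays, while sham arrays spanned 9804 to 12450 and 9418 to 11980. Of 8 defining markers 7 were measured, and none was at the floor on all 6 arrays. They did not move as 1: apoeb, the brightest, was lower (1205 to 1016, -0.25 ± 0.24; sham -0.33) and overlapped. csf1ra (0.16), spi1b (0.24) and ptprc (0.75, at the floor on 1 array at 4 h) overlapped as well. lcp1 (0.81 ± 0.30, adjusted p = 0.46) and marco (0.76 ± 0.39, adjusted p = 0.78) lay above 4 h without overlap. coro1a, an actin regulator of blood cells, read 528, 443 and 466 at 4 h and 681, 1012 and 715 at 11 d (0.72 ± 0.18, adjusted p = 0.16). grnb, a progranulin, went from 31.6 to 54.7 (0.79 ± 0.22, adjusted p = 0.25), and the lysosomal protease gene ctsba, named after its values were seen, from 949 to 3247 (1.77 ± 0.64, adjusted p = 0.45). ctsba is bright and enters the summed signal above, and the sum without it was not taken. lyz, lysozyme, was the exception with a large opposite difference, from 79.3 to the floor (-2.31 ± 0.76, adjusted p = 0.37). The part of these cells in the rises of c4b, cfp and tnfaip6 was not tested.

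Interferon-linked and immunoproteasome genes differed in the same direction in sham fish. Of 30 genes, 24 were higher and 5 lower in transected fish, with a median of 0.35 (0.60 on the deposited scale, and 0.19 to 0.64 over all alternatives), and 22 were higher in sham fish, with a median of 0.32. None passed. psme2, a proteasome activator subunit, read 114, 97.5 and 81.2 at 4 h and 205, 252 and 234 at 11 d (1.25 ± 0.27, adjusted p = 0.099; sham 0.31). irf1b, an interferon regulatory factor, read 70.8, 102 and 68.3 and 264, 153 and 255 (1.46 ± 0.33, adjusted p = 0.11; sham -0.28), again without overlap. psme1, the partner subunit of psme2, went from 284 to 665 (1.22 ± 0.33, adjusted p = 0.21), and b2m, the light chain of MHC class I, named after its values were seen, from 497 to 974 (0.97 ± 0.30, adjusted p = 0.3; sham 0.55). Lower members included ifi44f1 (32.6 to 17.6, without overlap, -0.89 ± 0.37, adjusted p = 0.59), ifi44f4 (-0.81 ± 0.53, overlapping) and mhc1uka (-0.49 ± 0.26, overlapping). Of the immunoproteasome subunit genes, named after their values were seen, psmb8a (0.13), psmb9a (0.20) and psmb12 (-0.01) were near level. psmb10 (0.64, without overlap) and psmb13a (0.61, overlapping) were higher.

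The largest called rise of a named gene was in iron storage. fthl30, a ferritin heavy chain-like gene, read 529, 496 and 410.4 at 4 h, then 921, 493 and 462 at 12 h, and finally 7498, 6934 and 5345 at 11 d, a 13.7-fold rise between 4 h and 11 d (log2 change 3.78 ± 0.61 (SE), adjusted p = 0.026). Sham arrays at 11 d were uneven, at 241, 1976 and 1971, and the difference from sham did not pass (3.37 ± 0.87, adjusted p = 0.87). Its probe set is of a kind that can bind related transcripts, so signal of other ferritin-like genes cannot be told apart from it. The related fthl28 went from 266 to 717 (1.43 ± 0.36, adjusted p = 0.16) and overlapped between the times. The fthl30 call was lost without replicate 1 (0.07), 2 (0.097) or 3 (0.084) of 4 h, or replicate 1 (0.12) or 2 (0.096) of 11 d, while its log2 change stayed between 3.67 and 3.92. Of 47 redox and iron genes, 28 were higher and 19 lower (median 0.10, or 0.39 and 0.02 on the deposited and median scales; sham 0.21). fthl30 alone passed, where 0.11% of all probe sets passed as higher.

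Other rises were smaller or dimmer. jag1a, a ligand of Notch receptors, was at the floor on all arrays at 4 h, 12 h and in sham fish, and read 23.4, 32.5 and 28.5 at 11 d. That is at least 1.74-fold higher (0.80 ± 0.08, adjusted p = 7.1e-04), close to the floor on a scale where dim values vary little. Over the 21 alternative fits that held jag1a, its log2 change ran from 0.0073 to 1.59. It missed the threshold in 2 of them, with an adjusted p up to 0.93. A floor of 32, 1 of the alternatives, lies above its readings of 23.4 and 28.5. nudt9, an ADP-ribose pyrophosphatase, read 179, 161 and 225 at 4 h and 559, 636 and 357 at 11 d (2.7-fold, 1.43 ± 0.23, adjusted p = 0.022; sham 0.56). A second nudt9 probe set had a log2 change of 0.56 that did not pass. stmp1, a small mitochondrial membrane protein, went from 229.7 to 448 (0.96 ± 0.18, adjusted p = 0.049). clk4a, a kinase of splicing factors, rose from 135 to 286 (1.09 ± 0.19, adjusted p = 0.045), and sham fish showed nearly the same difference, 0.93. Without replicate 2 of 4 h the adjusted p was 0.11 for nudt9, 0.23 for stmp1 and 0.21 for clk4a. Over the 6 omissions of 1 array, nudt9 kept the call in 2, and stmp1 and clk4a in 1 each.

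The 2 probe sets with the largest called changes have no gene symbol in the annotation. Dr.23443.1.A1_at was at the floor on all 4 h arrays and read 336, 298 and 207 at 11 d, at least 17.1-fold higher (4.1 ± 0.19, adjusted p = 5.3e-07). Dr.6709.1.S1_at read 32.7, 16 and 30.1 at 4 h, the floor at 12 h and 462, 499 and 284 at 11 d (16.1-fold, 4.01 ± 0.32, adjusted p = 1.3e-04). Sham fish stayed at or below 35.4 on both probe sets at 4 h and 11 d.

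3 genes of sterol synthesis and its control fell. hmgcs1, the enzyme that makes HMG-CoA at the start of the pathway, read 1741, 2053 and 1014 at 4 h and 382, 316 and 197 at 11 d, with the lowest 4 h array above the highest 11 d array. The level was 5.34-fold lower at 11 d (log2 change -2.42 ± 0.33 (SE), adjusted p = 0.015), and at 12 h it was already 305. In sham fish the level was 897 at 4 h, 357 at 12 h and 608 at 11 d, so it was lower at 12 h there as well. fdft1, squalene synthase, the first step committed to sterols, read 466, 528 and 328 at 4 h and 143, 150.0 and 123 at 11 d (3.13-fold lower, -1.65 ± 0.24, adjusted p = 0.017; sham -0.82). insig1, the endoplasmic reticulum protein that holds back SREBP and is itself an SREBP target, was measured by 3 probe sets. The first read 134, 179 and 139.6 at 4 h and 43.5, 33.8 and 34.6 at 11 d (-2.02 ± 0.25, adjusted p = 0.0071), the second, brighter one 396, 423 and 384 and 78.8, 74.7 and 68.8 (-2.44 ± 0.44, adjusted p = 0.047). The third had the same direction and missed the threshold (-1.89 ± 0.36, adjusted p = 0.062). None of the 3 overlapped between the times.

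Of 20 measured genes of sterol and unsaturated lipid synthesis, 19 were lower and 1, the fatty acid elongase gene elovl1b, was level (log2 change 0.00073). Of the 20, 3 passed, where 0.142% of all probe sets passed as lower. 10 of the 20 lay below 4 h without overlap, where 5.3% of all probe sets did. The median was -1.05, against -0.16 in sham fish, -0.76 on the deposited scale (6 higher, 14 lower) and -1.15 under median scaling. The median log2 signal of the list was 8.07, 7.91 and 7.32 on the 4 h arrays and 6.54, 6.07 and 6.06 on the 11 d arrays, without overlap. Its median change kept its sign in all 23 alternatives run, from -1.17 to -0.76. Members that follow were named after their values were seen. msmo1, a sterol demethylase, went from 683 to 169 (-2.02 ± 0.40, adjusted p = 0.068; 0.015 with dim probe sets left out), and fads2, a fatty acid desaturase, from 2767 to 842 (-1.72 ± 0.36, adjusted p = 0.087; 0.03). nsdhl, which oxidises sterol intermediates, read 209, 265 and 61.4 at 4 h and 39.2, 48.1 and 23.2 at 11 d (-2.09 ± 0.54, adjusted p = 0.18). dhcr7, the reductase of the last step to cholesterol, went from 849 to 401 (-1.08 ± 0.26, adjusted p = 0.14). acat2 (-0.04), at the entry of the pathway, and acaca (-0.02), acetyl-CoA carboxylase of fatty acid synthesis, were among 4 members with log2 changes within 0.05 of 0. The transected 12 h level of 16 of the 20 was nearer to 11 d than to 4 h. Low 12 h levels were not particular to transected fish. In sham fish hmgcs1, fdft1 and msmo1 had levels of 897, 364 and 514 at 4 h and 357, 182 and 172 at 12 h. Other members, such as fads2 (2337 and 2051) and stard4 (51.0 and 55.2), changed little there. In transected fish fads2 had levels of 2767 at 4 h and 1503.5 at 12 h, while stard4 was not lower at 12 h (61.2 and 65.7). The calls for hmgcs1, fdft1 and the first insig1 probe set were lost without replicate 2 of 4 h (adjusted p = 0.076, 0.085 and 0.066). That for fdft1 was also lost without replicate 1 of 4 h (0.058) or of 11 d (0.066). The second, brighter insig1 probe set lost its call in all 6 omissions of 1 array (adjusted p = 0.085 to 0.2).

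**Figure D3:**
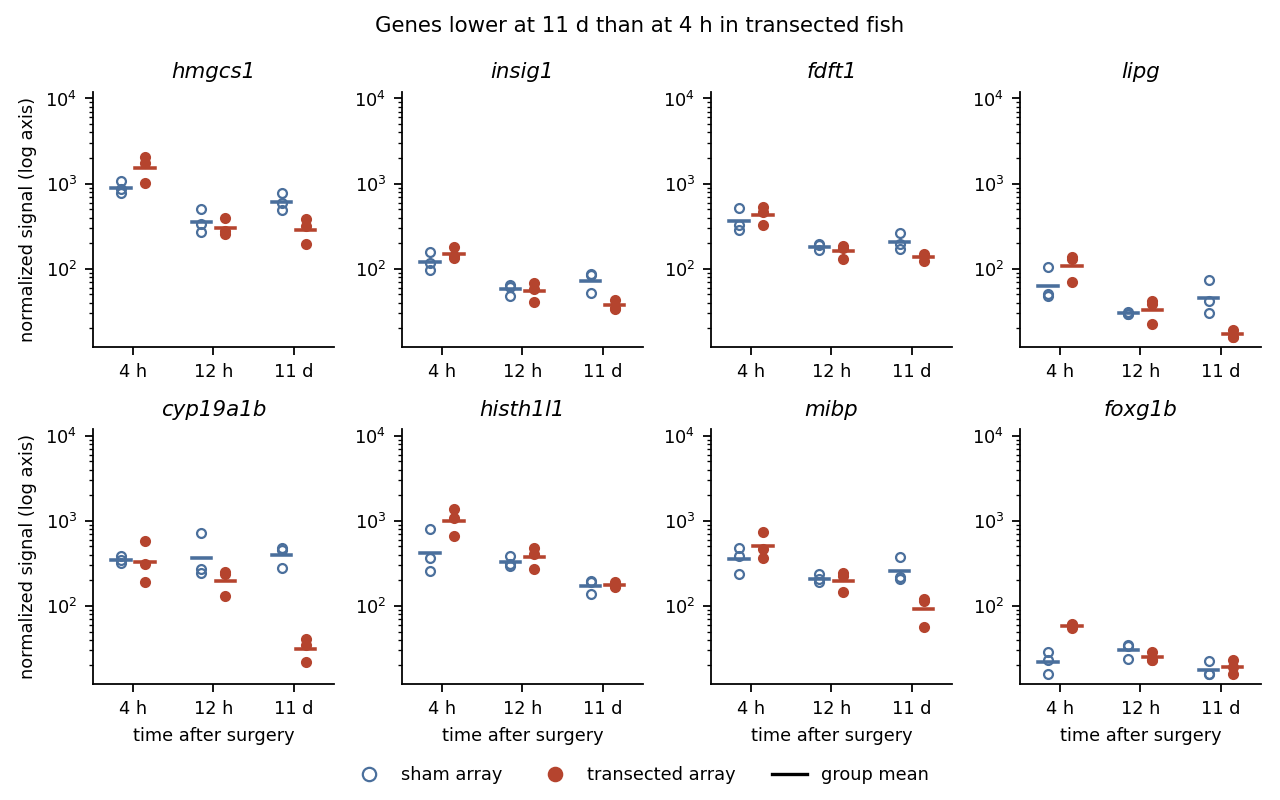
Normalized signal (log axis) of 8 genes on each array of sham (open) and transected (filled) fish at 4 h, 12 h and 11 d, with group means as bars, insig1 by 1 of its 3 probe sets. The 8 genes passed at an adjusted p under 0.05, and the 11 d filled points lie below those at 4 h. For hmgcs1, insig1, fdft1 and foxg1b the 12 h points lie with those of 11 d, and for cyp19a1b they lie nearer to 4 h.

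The largest called fall was in brain aromatase. cyp19a1b read 581, 312 and 191 at 4 h, then 253, 130.2 and 235 at 12 h, and finally 21.8, 34.9 and 41.3 at 11 d, a 10.3-fold fall from 4 h to 11 d (log2 change -3.37 ± 0.47 (SE), adjusted p = 0.015). In sham fish it read 316, 348 and 383 at 4 h and 476, 282 and 458 at 11 d, and the difference between the changes was -3.55 ± 0.67, which did not pass (adjusted p = 0.41). Of 2 other cyp19a1b probe sets, 1 went from 70.5 to 19.3 without passing (log2 change -1.87) and 1 was at or near the floor. The call was lost without replicate 2 of 4 h (0.076) or replicate 1 of 11 d (0.066), with log2 changes from -3.75 to -2.95 over the 6 omissions. Of the other 37 radial glia genes, 20 were higher and 16 lower, with a median of 0.07 that turned with the scaling (0.24 on the deposited scale, with 31 higher, and -0.09 under median scaling, with 25 lower). gfap, the glial filament, went from 343 to 374 (0.12 ± 0.30), glula, glutamine synthetase, from 1856 to 2399.8 (0.37 ± 0.12, adjusted p = 0.33), and fabp7a, a radial glial lipid carrier, from 7506 to 6950.2 (-0.11 ± 0.22). The summed signal of the 37 spanned 61840 to 69720 at 4 h and 62060 to 75780 at 11 d, which overlap.

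A second lipid gene and several regulators fell. lipg, endothelial lipase, read 130.3, 137 and 69.7 at 4 h and 16, 19.0 and 16 at 11 d, near the floor (6.35-fold, -2.67 ± 0.39, adjusted p = 0.016; sham -0.47). Markers of endothelium and pericytes were 10 higher and 12 lower of 25, with a median log2 change of 0. Their summed signal was 5671 to 6623 at 4 h and 4252 to 4570 at 11 d, below 4 h without overlap (sham 5469 to 5895 and 5429 to 7303). On the deposited scale these sums were 3732 to 6995 and 4510 to 4802. Bright members weigh most in a sum, such as epas1b (1534 and 883, overlapping), acta2 (821 and 479) and tagln (659 and 335), while podxl was level (409 and 421). Only kdrl of 5 defining endothelial markers was measured (511 and 330.3, overlapping), and the part of these cells in the lipg result was not tested. mibp, named for a muscle integrin-binding protein, read 745, 460.2 and 371 at 4 h and 119, 115 and 57.2 at 11 d (5.46-fold, -2.45 ± 0.37, adjusted p = 0.018). histh1l1, a linker histone, read 659, 1080.2 and 1364 and 166, 173 and 189.5 (5.64-fold, -2.49 ± 0.37, adjusted p = 0.018), and was also lower in sham fish (-1.28). foxg1b, a forkhead factor of the forebrain, read 55.1, 61.7 and 59.0 and 16, 19.4 and 23.4 (-1.60 ± 0.23, adjusted p = 0.015), and ascl1b, a proneural factor of the bHLH family, 187, 169 and 210.4 and 106, 82.4 and 96.6 (-0.99 ± 0.17, adjusted p = 0.039). Each of these 5 genes was lower on every 11 d array than on any 4 h array. Without replicate 2 of 4 h the adjusted p was 0.085 for lipg, 0.079 for mibp, 0.085 for histh1l1, 0.077 for foxg1b and 0.085 for ascl1b. Over the 6 omissions of 1 array, foxg1b kept the call in 4, lipg and mibp in 3 each, histh1l1 in 2 and ascl1b in 0.

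The remaining named falls included metabolic enzymes. hk2, the hexokinase that starts glycolysis, read 48.6, 73.0 and 35.09 at 4 h and the floor on all arrays at 12 h and 11 d, at least 3.12-fold lower (-1.64 ± 0.24, adjusted p = 0.017). tdh, which breaks down threonine, read 1115, 634 and 1054 at 4 h, then 747, 566 and 629.8 at 12 h, and finally 286, 231 and 266 at 11 d (3.48-fold, -1.80 ± 0.32, adjusted p = 0.041), one of 3 called falls whose 12 h level was nearer to 4 h. nt5c2l1, a cytosolic nucleotidase, went from 196 to 63.8 (-1.62 ± 0.29, adjusted p = 0.047). zgc:113265, a gene of unstated function, fell from 34.8 to 16.7 (-1.06 ± 0.17, adjusted p = 0.027) and vsig10, an immunoglobulin-domain protein, from 32.5 to the floor, at least 2.03-fold (-1.02 ± 0.18, adjusted p = 0.044). The sham change of zgc:113265 was close, at -0.90. The smallest called falls were chchd10, a mitochondrial protein of the cristae (2456 to 1349; -0.86 ± 0.13, adjusted p = 0.021), g3bp1, a core protein of stress granules (441 to 299; -0.56 ± 0.10, adjusted p = 0.035), and cdt1, a replication licensing factor (19.3 to the floor; -0.27 ± 0.04, adjusted p = 0.015). chchd10 and g3bp1 were named after their values were seen. Without replicate 2 of 4 h the adjusted p of hk2 was 0.076, of tdh 0.076, of nt5c2l1 0.097 and of chchd10 0.085. tdh (0.071 to 0.16), zgc:113265, vsig10 and g3bp1 lost their calls in all 6 omissions of 1 array. The call was kept in 4 omissions for cdt1, in 2 for hk2 and in 1 each for nt5c2l1 and chchd10.

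Transcripts of the respiratory chain were slightly and broadly lower at 11 d, with no gene passing. Of 87 measured genes, 75 were lower and 12 higher, 30 of them below 4 h without overlap (5.3% of all probe sets were) and none above. The median was -0.25 in transected and 0.10 in sham fish, where 64 were higher and 23 lower, and the difference of the changes was negative for 79 of 87. On the deposited scale the median was -0.08 (57 lower), beside the 0.149 by which all probe sets were higher there, and under median scaling -0.46 (84 lower). By complex, 36 of 39 genes of complex I were lower (median -0.28), 13 of 14 of complex IV (-0.35) and 17 of 18 of complex V (-0.29), and these 3 medians stayed negative under both other scalings. Complex III had 6 of 8 lower (-0.21, and 0.015 on the deposited scale), and complex II 3 of 7 (0.026, and -0.16 under median scaling). atp5pf, a subunit of the ATP synthase stalk, read 6080.4, 5756 and 6006 at 4 h and 4611, 4299 and 4611 at 11 d (-0.40 ± 0.08, adjusted p = 0.063). cox5ab, of cytochrome c oxidase, went from 1836 to 1088 (-0.76 ± 0.16, adjusted p = 0.099). The median log2 signal of the list was 11.06, 10.90 and 10.79 at 4 h and 10.90, 10.83 and 10.55 at 11 d, so the groups overlapped. These genes share arrays and scaling, so their number is not a number of independent observations.

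Ribosomal protein genes had a smaller shift in the same direction: 66 of 79 were lower and 13 higher, with a median of -0.22 (-0.05 in sham fish), 15 below 4 h without overlap (5.3% of all probe sets were) and none passing. On the deposited and median scales the median was -0.05 and -0.43. The median log2 signal of the list was 11.47, 11.34 and 11.24 on the 4 h arrays and 10.76, 11.02 and 11.18 on the 11 d arrays, so the nearest arrays of the 2 times differed by little. rps19, of the small subunit, went from 3268 to 1729 (-0.92 ± 0.19, adjusted p = 0.091), and rpl13a, of the large subunit, from 2838 to 2204 (-0.36 ± 0.07, adjusted p = 0.066).

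**Figure D4:**
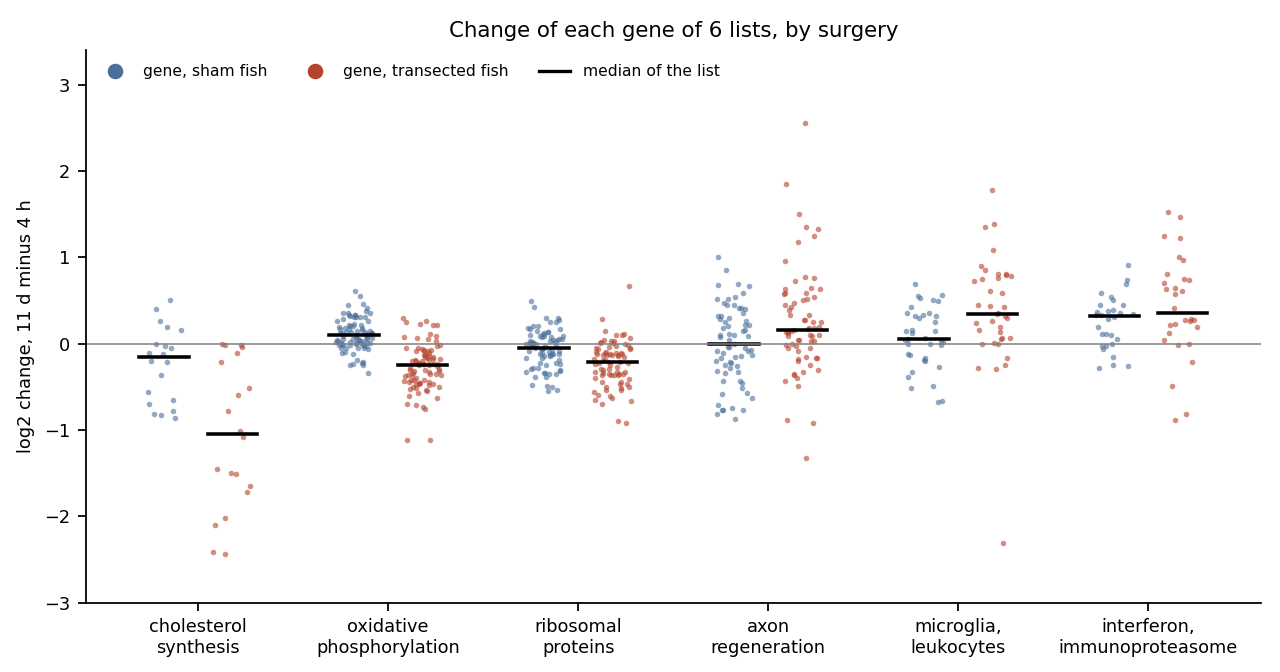
Log2 change from 4 h to 11 d of each measured gene of 6 lists, 1 point per gene on its brightest probe set, in sham (blue) and transected (red) fish, with the list median as a bar. Cholesterol synthesis has a transected median of -1.05 against -0.16 in sham fish, oxidative phosphorylation -0.25 against 0.10, and microglia and leukocytes 0.35 against 0.06.

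Genes linked to glucocorticoids, the stress hormones, lay lower at 11 d in both surgeries. Of 36, 26 were lower and 7 higher in transected fish, with a median of -0.30 (0 on the deposited scale), and 23 were lower in sham fish, with a median of -0.21. None passed with all probe sets, and 10 lay below 4 h without overlap, beside 5.3% of all probe sets. cebpb, a stress-induced transcription factor, read 162, 238 and 201 at 4 h and 66.3, 84.7 and 86.8 at 11 d (-1.33 ± 0.26, adjusted p = 0.066; 0.034 with dim probe sets left out; sham -0.77). fkbp5, a chaperone of the glucocorticoid receptor and a textbook target of it, was named after its values were seen and read 2238, 2367 and 3198 and 1037, 1436 and 848 (-1.25 ± 0.31, adjusted p = 0.16; sham -0.68). Both were lower on every 11 d array than on any 4 h array. angptl4, a secreted lipase inhibitor, went the other way, from 47.2 to 161 (1.77 ± 0.39, adjusted p = 0.11; 0.035 with dim probe sets left out).

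Among 61 early response genes, 32 were higher and 27 lower (median 0.03, and -0.0063 under median scaling), so they had no shared direction. gadd45ba, a stress-induced growth arrest gene, read 608, 603 and 749 at 4 h and 250.3, 186 and 281 at 11 d (-1.46 ± 0.29, adjusted p = 0.07; 0.031 with dim probe sets left out). hbegfa, a growth factor of the EGF family, read 66.9, 40.5 and 60.6 and 150.3, 116 and 163 (1.37 ± 0.30, adjusted p = 0.099; 0.048), in the opposite direction. egr1 was level, at 91.3 and 93.3 (0.03 ± 0.30), with a sign that turned under median scaling. Clock genes bear on the unstated time of day: of 36, 16 were higher and 18 lower, none passed, and bmal1a, a core clock factor, read 193, 288 and 338 at 4 h and 299, 279 and 392 at 11 d, overlapping, against 17.1, 67.6 and 74.4 at 12 h.

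**Figure D5:**
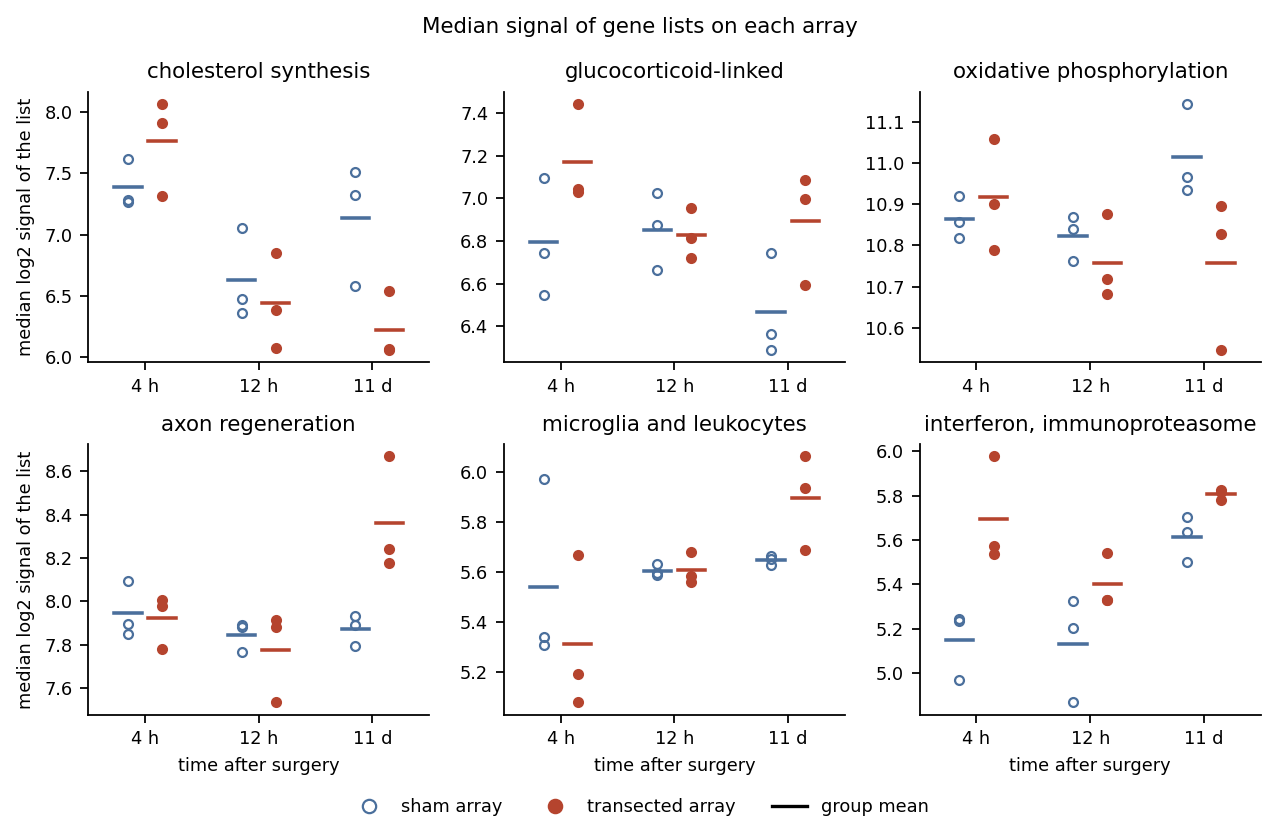
Median log2 signal of 6 gene lists on each array (vertical axes differ between panels), with group means as bars, for sham (open) and transected (filled) arrays at 4 h, 12 h and 11 d. The cholesterol panel has the 3 transected arrays at 11 d below the 3 at 4 h and its 12 h arrays near those of 11 d. In the axon regeneration and microglia panels the transected 11 d arrays lie above those at 4 h, and in the oxidative phosphorylation and glucocorticoid panels the groups overlap.

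The 12 h arrays, in time between the others, lay at different ends for rises and falls. For 15 of the 17 called rises the transected 12 h level was nearer to 4 h than to 11 d, and for 19 of the 22 called falls it was nearer to 11 d. thy1, for example, had levels of 75.4, 73.3 and 574 at 4 h, 12 h and 11 d, and hmgcs1 1536, 305 and 288. The sham levels of hmgcs1 were 897, 357 and 608, so a low 12 h level was not particular to transected fish. c4b and clk4a were the 2 rises whose 12 h level was nearer to 11 d. The GAPDH ratio of transected arrays was highest at 12 h, with geometric means of 2.08, 4.01 and 2.51 at 4 h, 12 h and 11 d. Its part in the 12 h levels was not tested.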

How the data were processed

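The deposited values are probe-set intensities on a linear scale, and the program that combined probes, its scaling and the genome build are not given in the sources used here. Per the labels' protocols, total RNA of captured tissue was amplified before labelling, which can add differences between samples. From the values, 16 arrays had a 2% trimmed mean of 150 and 2 arrays, sham and transected replicate 3 of 4 h, of 100.4 and 92.6. All 18 arrays were quantile normalized, set to at least 16 and log2 transformed, since 22.5% to 39.5% of values per array were below 16. After 115 control probe sets were removed, 15502 were tested: 10795 have 1 gene symbol in the platform annotation, 135 several and 4572 none. limma 3.58.1 (R 4.3.3) fitted 6 group means on 18 arrays (12 residual degrees of freedom), with default eBayes moderation and Benjamini-Hochberg adjustment. The labels do not say what a replicate number marks. Deviations from the group means were correlated between same-numbered arrays. Sham and transected arrays gave 0.623, 0.375 and 0.257 at 4 h and 0.232, 0.483 and 0.642 at 11 d. These were taken as pairs, from the values, in a fit added after seeing the data. The main fit left the pairs out and passed 4 probe sets in the difference, where the fit with pairs passed 0. Transected arrays of 4 h and 11 d gave 0.307, -0.37 and 0.306 and were not taken as pairs. Of these, 0.307 and 0.306 exceed the 0.257 and 0.232 above, so the line between them is a choice. The scripts were tested on simulated data with 50 changed probe sets per size of change among 15502. Log2 changes of 1, 2, 3 and 4 were recovered at 16%, 70%, 88% and 90%, and 16 unchanged probe sets were also called. Small changes were thus mostly missed in the simulation, and some of its calls were false. Its noise was drawn independently for each probe set, and its changes were put only on brighter probe sets. The rates in the real arrays can therefore differ from these. The number of arrays limits the precision. A gene with several probe sets stands in a list by its brightest one.

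Gene names followed a rule: up to 15 called rises and 15 called falls with 1 symbol and no overlap, by size, then up to 3 members per direction of each of 31 lists by unadjusted p, and a short list of injury, clock and candidate genes. Lists, members and the rule were chosen with earlier results of these data known. Genes outside the rule are chchd10, g3bp1 and the list members said to be named after their values were seen. In addition gfap, glula, fabp7a, kdrl, epas1b, podxl, fthl28, elovl1b, acat2, acaca and socs3a were picked as examples. The measured defining markers of microglia and leukocytes are given as a set. Sequences are not shown here.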

Additional observations from a re-analysis of the deposited data

Results flagged for a closer look

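The change from 4 h to 11 d differed between transected and sham fish for 4 probe sets, by the limma contrast of the 2 changes without a block. With the replicate block, Dr.23443.1.A1_at kept the call (adjusted p = 0.0022) and the other 3 lost it (0.077 each). With same-numbered sham and transected arrays of a time as a block, a choice made after seeing the data, none of the 4 kept it (adjusted p = 0.16 to 0.28, unadjusted p = 1.2e-05 to 4.9e-04). The difference, transected minus sham, was 3.60 ± 0.27 (SE) on the log2 scale for Dr.23443.1.A1_at (adjusted p = 1.6e-04) and 3.25 ± 0.45 for Dr.6709.1.S1_at (adjusted p = 0.03), neither with a gene symbol. It was 1.62 ± 0.22 for tnfaip6, the hyaluronan-binding inflammation gene (adjusted p = 0.03), and 0.802 ± 0.11 for the Notch ligand jag1a (adjusted p = 0.03). In each case all 3 transected arrays at 11 d were above every transected 4 h array and every sham array at 4 h and 11 d. At 4 h the transected levels of the 4 were between 16 and 25.1, so at or near the floor. With a floor of 4 in place of 16, none of the 4 passed. For jag1a all sham arrays were at the floor, and its small spread there enters the test. No cause of these differences was tested.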

How the results depend on the processing

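The count of 39 changed probe sets in transected fish was 11 on the deposited scale (9 among the 39) and 63 under median scaling (34 among the 39). With only the compared arrays in the fit it was 6 (4 higher, 2 lower, 3 among the 39). As choices made after seeing the data, it was 11 without the 12 h arrays (8 among the 39). With the first principal component of all arrays as a covariate it was 96 (37 higher, 59 lower, all 39 included). It stayed within 1.5 times under floors of 32 (35) and 4 (33), trended and robust moderation (35) and with dim probe sets left out (52). Leaving out 1 array at a time gave 5 to 57, and 27 of the 57 were among the 39. For sham fish the count of 0 became 2 with a floor of 32, 1 with a floor of 4, 1 without the 12 h arrays and 0 to 10 with 1 array left out, the 10 without replicate 3 of sham 11 d. The 4 differences between surgeries became 2 on the deposited scale, 1 under median scaling, 1 with a floor of 4 and 1 to 7 with 1 array left out. The 1 with a floor of 4 was negative and another probe set, so none of the 4 passed there. Of the 39, only Dr.23443.1.A1_at passed in all 23 alternatives and none changed sign. The log2 change of egr1, 0.03, turned to -0.0365 under median scaling, and with 1 array left out it ran from -0.07346 to 0.1418, turning without replicate 2 or 3 of 4 h or replicate 3 of 11 d. The sign of the median was kept in all 23 alternatives for 9 of 31 lists. Apart from the fits with fewer arrays or probe sets, the cause of these changes was not tested.

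Replicate numbers were not taken to pair the transected arrays of 4 h with those of 11 d, where 1 of 3 arrays at each time correlated best with its own number, but they were taken to pair sham with transected arrays of a time. With the replicate block 43 probe sets passed in transected fish (15 higher, 28 lower, 32 shared) and 1 in the difference between surgeries. With the block and dim probe sets left out, 49 and 2 passed. The block left the count in sham fish at 0. With the replicate block within each time, added after seeing the data, 0 probe sets passed in the difference, and the change in transected fish has no such fit with fixed blocks (random blocks were not run).

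With 3 arrays a time, 34 of the 39 calls were lost without replicate 2 of 4 h. Values near the floor of 16 have no order below it, and their folds are bounds. Whether samples of a time were processed together is not stated, so time after surgery and such a batch cannot be told apart. A probe set reports RNA of the captured region, not of the NMLF neurons alone.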

Other observations

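Genes described here were named after their values were seen, apart from scinla, pygl, igf2a, clu, acta2, cldn5a, scarb2a and lamp1b. With dim probe sets left out as above, further genes passed in transected fish. wnt4b, a secreted Wnt ligand, read 102, 16 and 42.6 at 4 h and 753, 668 and 676 at 11 d (log2 change 4.08 ± 0.79 (SE), adjusted p = 0.066; 0.0071 with dim probe sets left out), with a sham change of 0.55. Its 4 h arrays were uneven, and all 3 at 11 d were far above them. scinla, an actin-severing protein, read 35.7, 25.4 and 20.7 at 4 h and 109, 75.0 and 87.2 at 11 d (1.75 ± 0.34, adjusted p = 0.066; 0.019). nme2b.2, a nucleoside diphosphate kinase, read 72.3, 66.5 and 64.5 at 4 h and 142, 260.5 and 222 at 11 d (1.57 ± 0.30, adjusted p = 0.066; 0.023). In the other direction, igf1, the insulin-like growth factor, read 152, 177 and 202 at 4 h and 77.0, 70.5 and 47.9 at 11 d (-1.46 ± 0.30, adjusted p = 0.081; 0.034), and its sham change was close, at -1.12. pygl, a glycogen phosphorylase, went from 182 to 33.1 (-2.46 ± 0.56, adjusted p = 0.12; 0.032; sham -1.09), and tiparp, an ADP-ribosyltransferase, from 432 to 151 (-1.51 ± 0.34, adjusted p = 0.11; 0.048).

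The summed markers of ependyma, choroid plexus and meninges moved mainly with 1 gene, clu. Of 25 genes, 16 were higher at 11 d and 5 lower. They had a summed signal of 6741 to 7190 at 4 h and 8428 to 9923 at 11 d. In sham fish the sums were 5551 to 6873 and 7195 to 7651, also without overlap. Without clu the other 24 summed to 2283 to 2548 and 2527 to 2784 in transected fish and to 2056 to 2213 and 2069 to 2253 in sham fish, which overlap in both. clu, the secreted chaperone clusterin, read 4521, 4193 and 4907 at 4 h and 7396, 5811 and 6402 at 11 d (0.52 ± 0.12, adjusted p = 0.13), and igf2a, a growth factor, 16, 22.9 and 20.1 at 4 h and 34.1, 32.6 and 31.4 at 11 d (0.75 ± 0.15, adjusted p = 0.081). Of 3 measured defining markers, dnah9 was at the floor, and tekt1 and col1a2 overlapped between the times. Among vessel genes, acta2, smooth muscle actin, read 973, 902 and 631 at 4 h and 479, 484 and 474 at 11 d (-0.78 ± 0.17, adjusted p = 0.099), and cldn5a, a tight junction claudin, 29.9, 57.3 and 37.6 at 4 h and 16, 19.8 and 17.6 at 11 d (-1.18 ± 0.29, adjusted p = 0.16).

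Lysosome and autophagy genes were 39 higher and 18 lower of 59, with a median of 0.14 (0.38 with 48 higher on the deposited scale, 0.03 with 31 higher under median scaling), and none passed. lamp1b, a lysosomal membrane protein, went from 465 to 794 (0.77 ± 0.17, adjusted p = 0.11), and scarb2a, another one, from 55.0 to 25.6 (-1.10 ± 0.23, adjusted p = 0.086). Proteasome genes were 36 higher and 11 lower of 47 (median 0.13, or 0.42 with 44 higher and 0.04 with 28 higher on the deposited and median scales; sham 0.10; none passed). Cell cycle genes were 30 higher and 51 lower of 96, with a median of -0.05 that was 0.02 on the deposited scale. cdt1 alone passed, where 0.142% of all probe sets passed as lower, and its levels were close to the floor. Over the 21 alternative fits that held cdt1, its log2 change ran from -0.60 to 0, and its call was lost in 6. Genes of glycolysis and hypoxia were 21 higher and 36 lower of 62 (median -0.08, and 0.09 on the deposited scale), and hk2 alone passed, beside the same 0.142%.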
